A study of Mus musculus with 6 samples.

Results

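The data concern 10 genes of the cytotoxic program of lymphocytes in activated mouse regulatory T cells (Tregs, the CD4 T cells defined by the transcription factor Foxp3). They were the granzymes Gzma, Gzmb, Gzmk and Gzmc, the pore-forming Prf1, the granule membrane gene Nkg7, the granzyme inhibitor Serpinb9, the CD8 coreceptor genes Cd8a and Cd8b1, and Cd4 as a reference. They were chosen by symbol, with each gene taken from the deposited tables by its Ensembl identifier, and all 10 were found among 47069 genes. RNA sequencing covered 6 libraries. Tregs were taken from lymph nodes and spleen, enriched for CD4 cells, sorted as CD4+GFP+CD62Lhigh to a typical purity stated as above 90% and activated with Dynabeads, which are coated magnetic beads. All donors carried Foxp3Cre, in which Cre recombinase is driven from Foxp3 and so acts in Tregs, together with Noc4l+/fl (labelled Het) or Noc4lfl/fl (labelled cKO, conditional knockout). At 48 h there was 1 library per genotype, Het 1 and cKO 2. At 72 h there were 2 per genotype, Het 1 and cKO 2 in the same table as the 48 h libraries, and Het 3 and cKO 4 in a second table. The labels used here give neither the ages of the mice nor whether each library came from its own animal or pool. All p-values therefore measure only the spread between these libraries.

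Granzymes are serine proteases stored in lytic granules. Perforin, the product of Prf1, opens the membrane of a target cell, so that granzymes can enter and cleave proteins that lead to cell death. CD8 T cells and natural killer (NK) cells are the best-known users of this system, and activated Tregs are known to make granzyme B, which has been linked to their suppression of other cells.

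Gzma and Nkg7 were higher in the library labelled cKO in all 3 pairs, 5.08-fold to 13.7-fold at 72 h. Gzmb and Cd8a rose from 48 h to 72 h, 16.0-fold to 43.5-fold in the replicates that had both times. No gene of the 12488 tested passed the test for genotype at 72 h.

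The upstream sequences are shown for the 4 genes on which these comparisons turn most. Nkg7 and Gzma had the larger differences by genotype, while Gzmb and Gzmc, neighbours in a granzyme gene cluster, had the larger differences over time among the granule genes. Each is the 250 bases before the gene's start on the gene's own strand, from RefSeq (build GRCm38.p6), at chr7:43436888-43437137 (plus strand) for Nkg7, chr13:113100982-113101231 (minus) for Gzma, chr14:56262335-56262584 (minus) for Gzmb and chr14:56234658-56234907 (minus) for Gzmc. Capitals mark matches, on either strand, to 4 motifs of factors known in cytotoxic lymphocytes. These were TGTGGT (RUNX), GGTGTG (T-box), TGANTCA (AP-1) and TTCNNNGAA (STAT).
Nkg7: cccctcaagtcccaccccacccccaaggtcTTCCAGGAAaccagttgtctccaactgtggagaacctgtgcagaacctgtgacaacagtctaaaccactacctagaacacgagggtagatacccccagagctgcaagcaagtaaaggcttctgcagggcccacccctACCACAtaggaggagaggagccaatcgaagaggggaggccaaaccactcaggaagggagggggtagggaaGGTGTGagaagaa
Gzma: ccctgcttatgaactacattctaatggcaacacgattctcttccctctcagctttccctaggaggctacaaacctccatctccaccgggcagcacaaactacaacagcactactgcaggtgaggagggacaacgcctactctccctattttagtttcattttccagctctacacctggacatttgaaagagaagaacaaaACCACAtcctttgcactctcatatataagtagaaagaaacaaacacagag
Gzmb: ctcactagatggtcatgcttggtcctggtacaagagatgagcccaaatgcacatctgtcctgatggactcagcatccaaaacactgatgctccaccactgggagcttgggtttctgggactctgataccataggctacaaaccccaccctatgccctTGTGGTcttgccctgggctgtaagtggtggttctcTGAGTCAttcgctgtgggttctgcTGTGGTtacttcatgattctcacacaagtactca
Gzmc: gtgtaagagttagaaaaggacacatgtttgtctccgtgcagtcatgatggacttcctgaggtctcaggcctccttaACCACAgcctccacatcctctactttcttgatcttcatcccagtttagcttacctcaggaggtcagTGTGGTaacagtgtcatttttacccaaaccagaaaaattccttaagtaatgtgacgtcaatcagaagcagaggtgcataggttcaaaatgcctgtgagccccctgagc

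The RUNX letters were found in each of these 4 windows. Gzmb and Gzmc each held 2 matches. Of the 10 genes, 8 had a window in the RefSeq table, all but Cd8b1 and Cd4. The RUNX motif occurred in 5 of these 8 (Nkg7, Prf1, Gzma, Gzmc and Gzmb), and in 14.0% of 32851 windows of the same length. T-box letters occurred in 3 of 8 (Nkg7, Serpinb9 and Gzmk), against 16.3% of all windows. An AP-1 match was found only in Gzmb among the 8 (6.75% of all windows) and a STAT match only in Nkg7 (7.02%). In the 4 printed windows, no matches overlapped one another. These are matches of letters, not measured binding.

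Estimated depth was 16.5 to 28.8 M fragments per library. The targeted gene Noc4l (ENSMUSG00000033294) went against the genotype labels, with 99.1, 48.8 and 40.8 FPKM (a fragment count corrected for gene length and library size) in the libraries labelled Het and 124, 81.7 and 58.1 in their partners labelled cKO, so directions below are those of the labels. Each table holds 1 value per gene, so loss of floxed exons could not be read. Foxp3, the defining gene of the labelled cell type, was at 147 to 336 FPKM and the T cell gene Cd3e at 256 to 332.

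Transcripts of other cell types were spread unevenly. The 14 neutrophil and myeloid markers summed to 450 and 388 FPKM in cKO 2 at 48 h and 72 h and to 86.2 in cKO 4, against 25.0 to 47.2 in the libraries labelled Het. Most of the sum in cKO 4 and in the libraries labelled Het was the lactoferrin gene Ltf, at 75.3 in cKO 4 and 21.4 to 43.5 in the latter, and S100a8 and S100a9 were listed at 0 in both Het 3 and cKO 4. The 10 B cell markers summed to 112 in cKO 2 at 72 h and to 9.92 to 27.5 elsewhere. The 14 NK cell markers, Nkg7 among them, summed to 8.50 to 38.3 in the libraries labelled Het and 48.9 to 191 in those labelled cKO, with 8 listed at 0 in Het 3 and 5 in cKO 4. Most of each sum was Nkg7 itself, at 6.48 to 29.1 in the libraries labelled Het and 27.5 to 148 in those labelled cKO. The defining receptors Ncr1 and Klrb1c stayed at or below 0.566 and 1.24 FPKM in every library. Other members were not all as low. In Het 1 and cKO 2, Tyrobp was 0.924 and 10.2 at 48 h and 0.508 and 8.84 at 72 h. Fcer1g was 3.15 and 6.82 there at 48 h and 2.001 and 13.5 at 72 h. In Het 3 and cKO 4, Tyrobp was 1.24 and 1.08 and Fcer1g 0.144 and 1.91. Klrd1 was lower with the cKO label at 48 h (1.66 and 0.992). Klra4 was lower with that label in both pairs of replicates 1 and 2, and Klra8 was at 0 at 72 h. Sums of the 13 CD8 T cell markers were 121 to 208 in the libraries labelled Het and 128 to 353 in those labelled cKO, and most of each sum was Runx3, which CD4 cells also make. The dendritic cell list, for CD8+ dendritic cells, summed to 58.0 to 159 and 163 to 429 in Het and cKO libraries, mostly from Irf8, with Clec9a at 0 throughout and Xcr1 at most 0.151. Its 4 tested genes, Irf8, Itgae, Batf3 and Wdfy4, were all higher with the cKO label at 72 h (61% of all genes were). Their median log2 ratio was 1.96 in replicates 1 and 2 and 1.54 in replicates 3 and 4. Batf3 was 1.88, 7.03, 0.0556 and 1.81 FPKM in Het 1, cKO 2, Het 3 and cKO 4, and Wdfy4 0.382, 6.74, 0.0883 and 0.178. In Het and cKO libraries, gamma delta T cell markers gave 10.1 to 29.6 and 8.47 to 60.3. Erythroid and platelet markers gave 1.97 to 27.1 and 1.45 to 31.2, and mast cell and basophil markers 7.27 to 13.9 and 6.45 to 17.3. The part of these transcripts in the results was not tested.

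**Figure D1:**
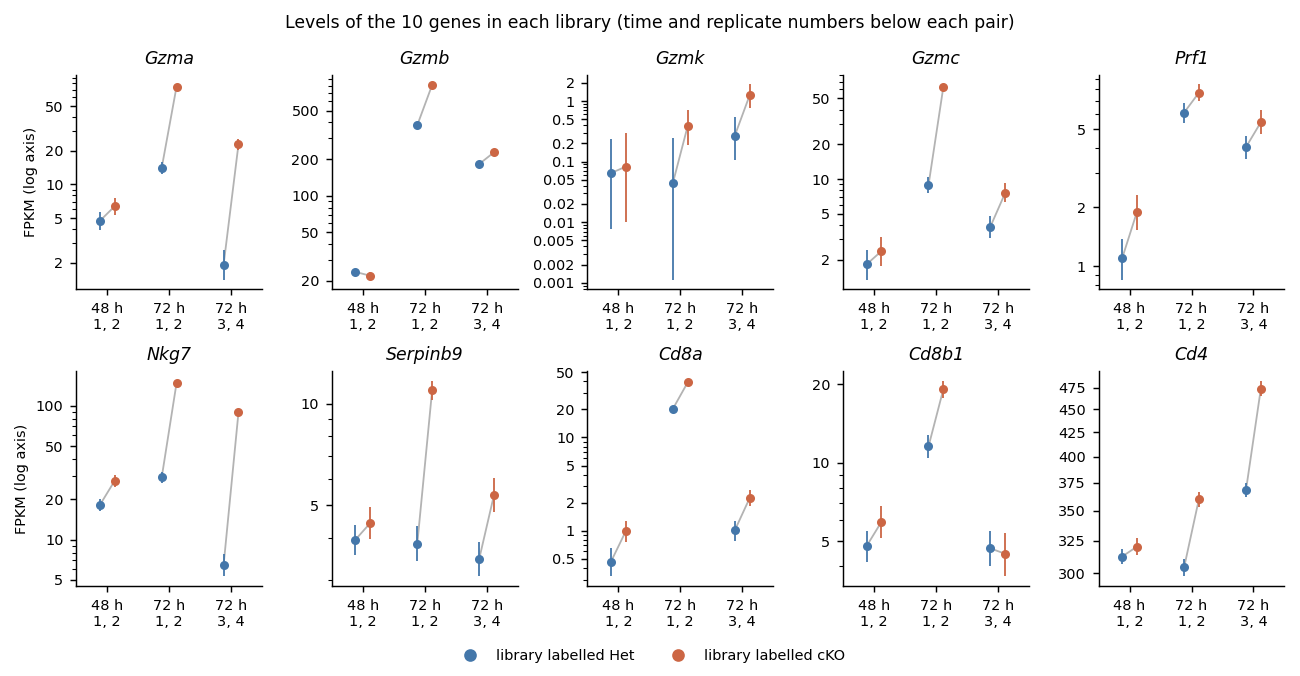
FPKM on log axes in each library for the 10 genes, with blue points for libraries labelled Het, orange points for those labelled cKO, lines joining each pair of a table and time, and bars for 95% counting intervals. Gzma and Nkg7 differ 5.08-fold to 13.7-fold within both 72 h pairs, Gzmb and Cd8a separate most between 48 h and 72 h of replicates 1 and 2, and Cd4 stays between 304 and 474 FPKM.

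Gzma (ENSMUSG00000023132) encodes granzyme A, a protease that cuts after basic residues. Its 48 h levels were 4.71 FPKM (Het 1) and 6.37 (cKO 2). At 72 h it was 14.0 in Het 1, 74.9 in cKO 2, 1.92 in Het 3 and 22.8 in cKO 4. Both libraries labelled cKO lay above both labelled Het at 72 h, and the groups did not overlap, which held for 24.9% of the 12488 genes in that direction. The fold was 5.34 in replicates 1 and 2 (95% counting interval 4.70 to 6.09) and 11.9 in replicates 3 and 4 (8.60 to 16.5). The 48 h fold was 1.35 (1.05 to 1.73). In bulk RNA, a higher level in the same number of cells and a larger number of cells with the gene cannot be told apart. The corresponding log2 fold change was 2.68 ± 0.22 (SE, n = 2 per genotype, adjusted p = 0.106 in limma).

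Nkg7 (ENSMUSG00000004612), a membrane protein of cytotoxic granules that takes part in their release, was the member with the largest fitted difference by genotype. Its 48 h levels were 18.1 FPKM (Het 1) and 27.5 (cKO 2), followed by 29.1, 148, 6.48 and 89.1 in Het 1, cKO 2, Het 3 and cKO 4 at 72 h. The lowest of all 6 values and the second highest came from the same pair, replicates 3 and 4. Its fold was 1.52 at 48 h (95% counting interval 1.32 to 1.75), 5.08 in replicates 1 and 2 at 72 h (4.58 to 5.64) and 13.7 in replicates 3 and 4 (11.3 to 16.9). On the log2(FPKM + 1) scale the difference at 72 h was 2.95 ± 0.35 (SE, limma adjusted p = 0.118), the 9th highest of 12488 genes, and Gzma was 20th. Only 7 genes (0.0561%) were at least 8-fold higher in cKO 4 than in Het 3 on that scale, and Gzma and Nkg7 were 2 of them.

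Gzmb (ENSMUSG00000015437) encodes granzyme B, which cuts after aspartate and can activate caspases. Its 48 h levels were 23.7 FPKM (Het 1) and 22.1 (cKO 2), followed by 379, 811, 182 and 227 in Het 1, cKO 2, Het 3 and cKO 4 at 72 h. Het 1 and cKO 2 were thus far higher at 72 h than at 48 h. Het 3 and cKO 4 also lay far above those 48 h values, but their table was normalized separately and holds no 48 h library. At 72 h Gzmb lay above 98.7% to 99.8% of all genes. By genotype the fold was 0.930 at 48 h (95% counting interval 0.843 to 1.02), 2.14 in replicates 1 and 2 at 72 h and 1.25 in replicates 3 and 4. The levels of the genotypes overlapped at 72 h, since Het 1 exceeded cKO 4. The difference at 72 h was 0.71 ± 0.23 on the log2 scale (SE, limma adjusted p = 0.266).

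Gzmc (ENSMUSG00000079186) encodes granzyme C, from the same gene cluster as granzyme B. At 48 h it was 1.82 FPKM (Het 1) and 2.38 (cKO 2), followed by 8.85, 62.8, 3.87 and 7.61 at 72 h in Het 1, cKO 2, Het 3 and cKO 4. The cKO 2 library at 72 h stood apart, with the other 3 libraries of that time under 9 FPKM. The fold at 72 h was 7.09 in replicates 1 and 2 (95% counting interval 6.01 to 8.36) and 1.96 in replicates 3 and 4 (1.47 to 2.65), with a log2 difference of 1.76 ± 0.49 (SE, limma adjusted p = 0.233). Gzmc shared 4.14% of its 50-base stretches with Gzme, Gzmg and Gzmd, so reads could have been divided among these genes, and its values are uncertain to that extent. Those neighbours were likewise highest in cKO 2 at 72 h, where Gzmd reached 4.87 FPKM, Gzme 1.77, Gzmf 1.53 and Gzmg 1.52, and none of them exceeded 0.738 in any other library.

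Gzmk (ENSMUSG00000042385), the gene for granzyme K, a relative of granzyme A, was barely detected. It rested on an estimated 2, 2, 1, 10, 7 and 22 fragments in Het 1 and cKO 2 at 48 h, Het 1 and cKO 2 at 72 h, Het 3 and cKO 4, at 0.0445 to 1.24 FPKM. The count in cKO exceeded that in Het in both 72 h pairs, with wide counting intervals for the fold (4.64 in replicates 3 and 4, 1.92 to 12.9). Its mean was under 1 FPKM, so it was left out of the fits, and the other 9 genes were tested. Esm1 overlaps Gzmk on the opposite strand, and without a stated strand setting their reads cannot be told apart.

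Prf1 (ENSMUSG00000037202), the perforin gene, stayed low. At 48 h it was 1.10 FPKM (Het 1) and 1.90 (cKO 2), followed by 6.10, 7.71, 4.06 and 5.44 in Het 1, cKO 2, Het 3 and cKO 4 at 72 h. The library labelled cKO was the higher of each pair, by 1.26-fold to 1.73-fold, and the genotypes overlapped at 72 h. The log2 difference of 0.32 ± 0.15 (SE) had a limma adjusted p of 0.369. Per kilobase, Gzmb exceeded Prf1 by 11.6 to 21.6 times at 48 h and by 41.8 to 105 times at 72 h.

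Serpinb9 (ENSMUSG00000045827) encodes the intracellular inhibitor of granzyme B, which protects cells that make or meet it. At 48 h it was 3.96 FPKM (Het 1) and 4.43 (cKO 2), followed by 3.85, 11.0, 3.47 and 5.38 in Het 1, cKO 2, Het 3 and cKO 4 at 72 h. Both libraries labelled cKO were above both labelled Het at 72 h, as for 24.9% of all genes. The fold was 2.84 in replicates 1 and 2 and 1.55 in replicates 3 and 4, and the log2 difference was 0.91 ± 0.25 (SE, limma adjusted p = 0.233). The related Serpinb9b shares 0.378% of the 50-base stretches of Serpinb9.

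The CD8 coreceptor is a pair of chains encoded by Cd8a and Cd8b1, and Cd8a alone can also form a homodimer. Cd8a (ENSMUSG00000053977) was at 0.466 FPKM (Het 1) and 0.992 (cKO 2) for 48 h, 20.3 and 39.0 in the same replicates after 72 h, and 1.01 and 2.24 in Het 3 and cKO 4. The library labelled cKO was thus 1.92-fold to 2.22-fold higher in each pair, although the level itself differed widely between the tables. The log2 difference by genotype at 72 h was 0.80 ± 0.15 (SE, limma adjusted p = 0.165). Cd8b1 (ENSMUSG00000053044) was 4.78 and 5.92 FPKM at 48 h in Het 1 and cKO 2, and 11.5, 19.1, 4.69 and 4.47 at 72 h in Het 1, cKO 2, Het 3 and cKO 4. It was lower in cKO 4 than in Het 3, so its direction by genotype differed between pairs (log2 difference 0.31 ± 0.23, limma adjusted p = 0.523).

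The chains did not keep a fixed ratio. Cd8a was 0.0975 and 0.167 times Cd8b1 at 48 h, 1.76 and 2.04 times in Het 1 and cKO 2 at 72 h, and 0.216 and 0.502 times in Het 3 and cKO 4. In the 2 libraries with the most Cd8a it thus exceeded Cd8b1, and in the other 4 it did not. Cd8b1 shared 6.28% of its 50-base stretches with transcripts of other genes, so part of its low level is uncertain. Cd4 (ENSMUSG00000023274), the coreceptor by which the cells were enriched and sorted, was 312.6 FPKM (Het 1) and 320.4 (cKO 2) at 48 h. The 72 h values were 304 (Het 1), 360.4 (cKO 2), 369 (Het 3) and 474 (cKO 4). Its log2 difference by genotype at 72 h was 0.30 ± 0.12 (SE, limma adjusted p = 0.320). Cd8a came to 6.66% and 10.8% of Cd4 in Het 1 and cKO 2 at 72 h, and to 0.149% to 0.473% in the other 4 libraries.

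Set against Cd8a, the granule genes went different ways. In replicates 3 and 4 at 72 h, where Cd8a was at 1.01 and 2.24 FPKM, Nkg7 was 6.41 times Cd8a in Het 3 and 39.7 times in cKO 4. In replicates 1 and 2 at that time the ratio was 1.43 and 3.79, and at 48 h it was 38.8 and 27.7. Gzma gave ratios to Cd8a of 1.90 and 10.2 in replicates 3 and 4, 0.692 and 1.92 in the other 72 h pair, and 10.1 and 6.42 at 48 h. Between the 72 h pairs, the differences of Gzma and Nkg7 by genotype were larger in the pair with less Cd8a. The 48 h pair, with Cd8a at 0.466 and 0.992 FPKM, had the smallest differences, 1.35-fold for Gzma and 1.52-fold for Nkg7. At 72 h both ratios were higher in the library labelled cKO of each pair. Gzmb was 180 and 101 times Cd8a in Het 3 and cKO 4, and 18.7 to 50.9 times in the other 4 libraries. The tables were normalized separately, so these levels are set beside each other only as a description.

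**Figure D2:**
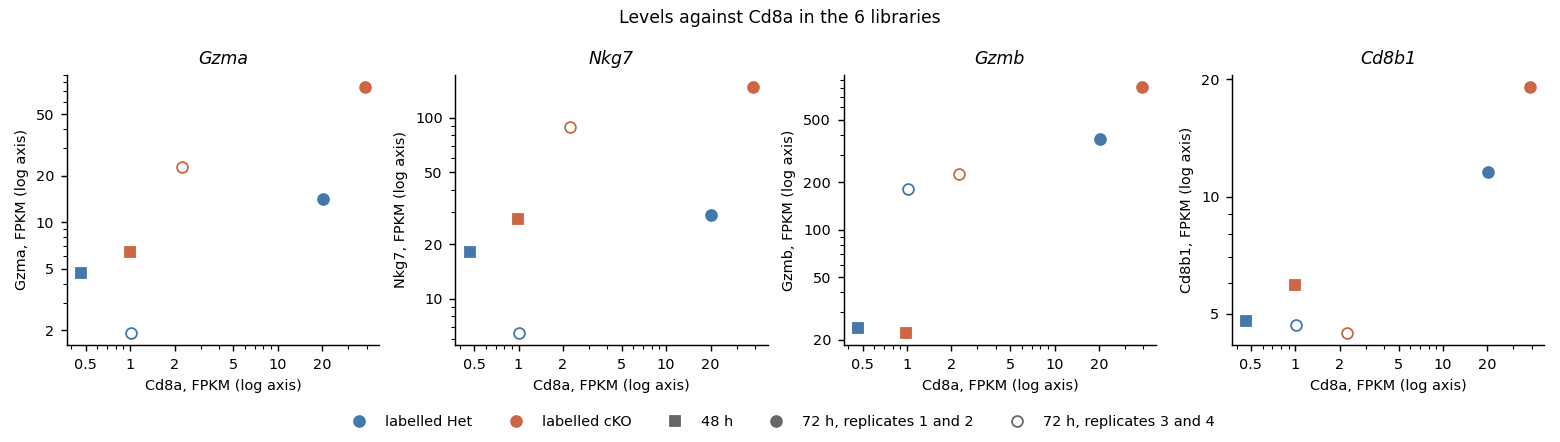
FPKM of Gzma, Nkg7, Gzmb and Cd8b1 against FPKM of Cd8a, on log axes, with 1 point per library (blue Het and orange cKO labels, squares 48 h, filled circles replicates 1 and 2 at 72 h, open circles replicates 3 and 4). Gzma at 22.8 FPKM and Nkg7 at 89.1 in cKO 4 occur at a Cd8a of 2.24, while Het 1 at 72 h has less of both at a Cd8a of 20.3.

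Counted together at 72 h, 0 of the 9 tested genes and 0% of all 12488 genes passed limma's adjusted p of 0.05. At an unadjusted p under 0.05, 6 of 9 were higher in the libraries labelled cKO (Gzma, Gzmb, Gzmc, Nkg7, Serpinb9 and Cd8a), against 10.3% of all genes. That background was 1286 genes higher and 873 lower as deposited, and 886 higher and 1243 lower with every library centred on its median. With that centring 5 of 9 members passed the limit, Gzmb no longer among them. With no table term 3 did, where 658 of all genes were higher and 462 lower. In both pairs alike, 8 of 9 were higher (42.4% of all genes), the exception being Cd8b1. Gzma and Nkg7 were at least 2-fold higher in both pairs (1.67% of genes).

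The pairs differed in how many of the 9 genes moved. In replicates 1 and 2 at 72 h, 5 were at least 2-fold higher on the log2(FPKM + 1) scale (Gzma, Gzmb, Gzmc, Nkg7 and Serpinb9), against 4.8% of genes. In replicates 3 and 4 it was 2 (Gzma and Nkg7), against 3.88%. At 48 h, with 1 library per genotype and no test, none was (1.11% of genes), and log2 ratios ran from -0.10 for Gzmb to 0.58 for Nkg7. In all 3 pairs, 7 of 9 were higher (23.5% of genes).

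**Figure D3:**
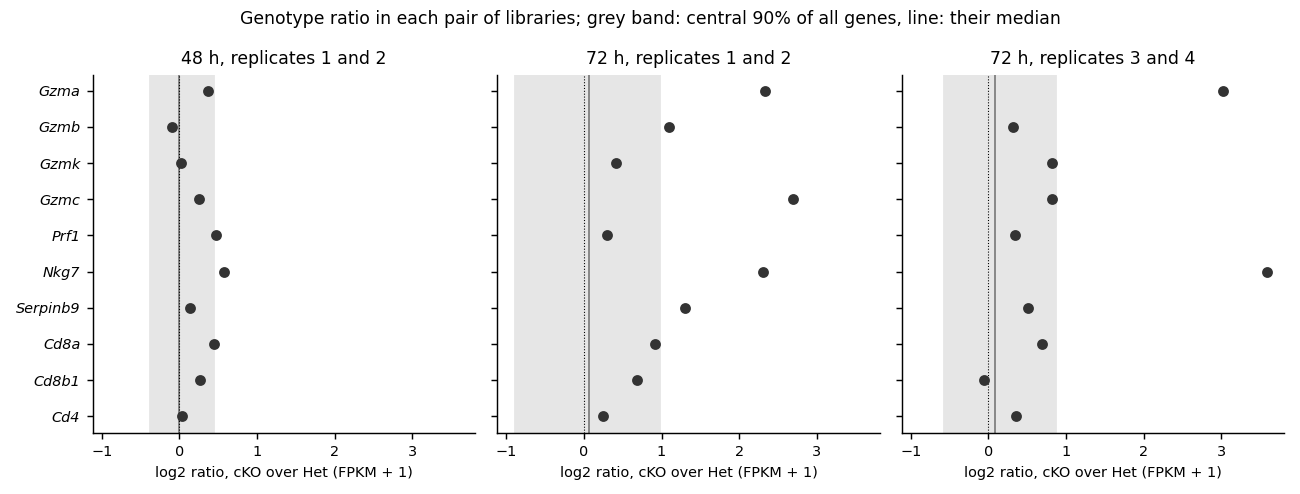
Log2 ratio of the library labelled cKO to that labelled Het, on the log2(FPKM + 1) scale, for each gene in the 48 h pair and both 72 h pairs, beside the range that holds the central 90% of all genes in each pair. Nkg7 at 3.59 and Gzma at 3.03 in replicates 3 and 4 lie farthest above that range.

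In the fit of all 6 libraries, with the genotype effect common to both times, 0 of 9 genes passed limma's adjusted p of 0.05, as did 0% of all 12394 genes. At an unadjusted p under 0.05, 6 of 9 were higher, with Prf1 in the place of Gzmb, against 8.04% of genes (996 higher and 654 lower). With median centring 3 members passed that limit (738 of all genes higher and 861 lower), and with no table term 1 did (594 and 398). Nkg7 stood at 2.16 ± 0.55 (SE) and Gzma at 1.91 ± 0.50 on the log2 scale, with Cd8a at 0.68 ± 0.16, and limma gave each of them an adjusted p of 0.343. Leaving out 1 library moved these values, and either library of a pair gave the same value. The ranges thus set pairs, not single libraries, against each other. Nkg7 ranged from 1.44 without Het 3 or cKO 4 to 2.95 without either 48 h library, Gzma from 1.35 to 2.68 likewise, and Gzmb from 0.11 without Het 1 or cKO 2 at 72 h to 0.71 without either 48 h library. Prf1 at 0.37 had an adjusted p of 0.374 in the same limma fit and Gzmb at 0.44 one of 0.460.

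From 48 h to 72 h, Gzmb and Cd8a rose. They were 2 of 9 tested genes past limma's adjusted p of 0.05, against 0.0242% of all 12394 genes, or 3 genes. Gzmb rose by 4.54 ± 0.29 on the log2 scale (SE, limma adjusted p = 0.0481), 16.0-fold in Het 1 and 36.7-fold in cKO 2, and it was the largest difference over time of all genes tested. Cd8a rose by 4.09 ± 0.20 (limma adjusted p = 0.0186), 43.5-fold in Het 1 and 39.3-fold in cKO 2, from a level under 1 FPKM. Both were at least 4-fold higher in both replicates, as were 0.0888% of genes. Time was estimated within the table of replicates 1 and 2, which has 1 library per genotype at each time. Over 17 ways of fitting, Cd8a passed in 9 (limma adjusted p from 0.0114 to 0.373) and Gzmb in 6 (0.0249 to 0.531). With the replicate number as a block neither passed, at the same folds (limma adjusted p = 0.0588 for Cd8a and 0.0996 for Gzmb). Leaving out either 48 h library ended both calls, leaving out either 72 h library of replicates 1 and 2 ended that of Cd8a, and leaving out Het 3 or cKO 4 ended that of Gzmb.

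The second table bears on the level of both genes at 72 h. Het 3 and cKO 4 had 182 and 227 FPKM of Gzmb, and only 1.01 and 2.24 of Cd8a. Set beside the 48 h values of the first table, which was normalized separately, Gzmb was thus far above 23.7 and 22.1, while Cd8a was near 0.466 and 0.992.

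Of the other genes, Prf1 came closest, with a log2 difference over time of 1.67 ± 0.18 (SE, limma adjusted p = 0.147), at 5.54-fold in Het 1 and 4.05-fold in cKO 2. Gzmc stood at 3.02 ± 0.57 and Cd8b1 at 1.33 ± 0.22, both with a limma adjusted p of 0.271. Gzma stood at 2.38 ± 0.62 (adjusted p = 0.362 in limma) and Nkg7 at 1.52 ± 0.67 (0.479), and for these genes the replicates diverged. The fold over time was 2.98 in Het 1 and 11.8 in cKO 2 for Gzma, 1.61 and 5.38 for Nkg7, 4.85 and 26.4 for Gzmc, and 0.974 and 2.47 for Serpinb9. Cd4 was nearly level at 0.07 ± 0.13. In both replicates, 6 of 9 genes were at least 2-fold higher (0.863% of all genes), all but Nkg7, Serpinb9 and Cd4.

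Whether the genotype difference depended on time was tested with an interaction term. Among 12394 genes 0% passed limma's adjusted p of 0.05, and 0 of 9 members did. At an unadjusted p under 0.05 the difference was larger at 72 h than at 48 h for Gzma and Nkg7, 2 of 9 genes against 3.43% of all genes. Gzma had an interaction of 2.31 ± 0.38 (SE, limma adjusted p = 0.742) and Nkg7 one of 2.37 ± 0.61 (limma adjusted p = 0.806) on the log2 scale.

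**Figure D4:**
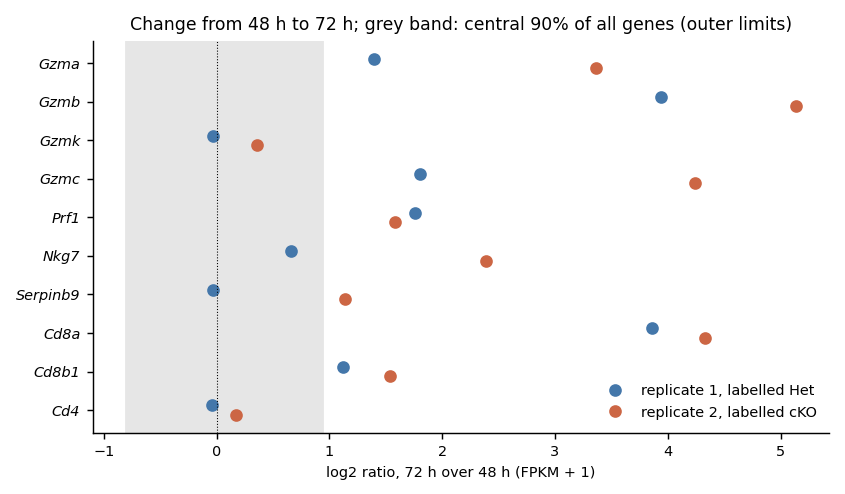
Log2 ratio of 72 h to 48 h, on the log2(FPKM + 1) scale, for each gene in Het 1 and cKO 2, with a grey band for the outer limits of the central 90% of all genes. Gzmb (3.94 and 5.14) and Cd8a (3.86 and 4.33) lie far above the band in both, while Cd4 (-0.04 and 0.17) lies inside it.

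The wider granule pathway was followed through lists of genes of known role, none of which had a gene past limma's adjusted p of 0.05 for genotype at 72 h. The median log2 difference was 0.80 over the 9 tested members and 0.08 over all genes. Of 13 genes for granzyme activation and granule cargo, 11 were higher in the libraries labelled cKO (61% of all genes were), with a median of 0.22. Ctsw, a cathepsin of cytotoxic lymphocytes, stood at 1.19 ± 0.12 (SE), the cathepsin Ctsh at 2.01 ± 0.23, Cst7 (cystatin F, which controls the cathepsins that activate granzymes) at 1.25 ± 0.26 and Ctsd at 0.40 ± 0.12, with limma adjusted p from 0.106 to 0.248. Ctsw was 53.5 and 57.7 FPKM in Het 1 and Het 3 at 72 h and 120 and 137 in cKO 2 and cKO 4. Ctsc, which removes the propeptide of granzymes, was level at -0.09 ± 0.14, and the granule proteoglycan gene Srgn stood at 0.06 ± 0.19.

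Of 19 tested genes of the exocytosis machinery 11 were higher, against 61% of all genes, with a median of 0.06. The synaptotagmin-like Sytl2 stood at -0.86 ± 0.19 (SE), Ap3b1 of the AP-3 adaptor at 0.51 ± 0.15, Sytl3 at 0.61 ± 0.18 and the syntaxin Stx11 at 0.56 ± 0.22, with limma adjusted p from 0.193 to 0.311. Rab27a and Unc13d, which dock and prime granules, stood at 0.08 ± 0.12 and 0.15 ± 0.13. Inhibitors of granzymes and cathepsins were higher in 4 of 6 tested genes (median 0.10), against the same 61%. Serpina3g stood at 1.49 ± 0.13 (limma adjusted p = 0.106), with 19.0 and 25.5 FPKM in Het 1 and Het 3 at 72 h against 52.9 and 76.6 in cKO 2 and cKO 4. Serpina3f stood at 2.14 ± 0.29 (limma adjusted p = 0.121), Serpinb6a at -0.72 ± 0.41 and Cst3, cystatin C, at -0.16 ± 0.23.

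Substrates of granzymes and effectors of cell death were higher in 10 of 14 genes (median 0.25; 61% of all genes were). The DNA repair enzyme Apex1 stood at 0.92 ± 0.18 (SE), the chromatin protein Hmgb2 at -0.59 ± 0.14, Nme1 at 0.48 ± 0.16 and Bid, which granzyme B cleaves, at 0.50 ± 0.17. Limma adjusted p ran from 0.167 to 0.277 for these. Death ligands and receptors, the other route by which T cells kill, were higher in 6 of 10 (median 0.02), close to the share of all genes. Fasl was 1.79 and 1.19 FPKM in Het 1 and Het 3 at 72 h against 7.86 and 4.51 in cKO 2 and cKO 4, a log2 difference of 1.50 ± 0.20 (SE, limma adjusted p = 0.121). Its receptor Fas stood at 0.81 ± 0.14, the TRAIL receptor Tnfrsf10b at 0.92 ± 0.24 and the lymphotoxin gene Lta at 0.70 ± 0.19, with limma adjusted p from 0.156 to 0.225.

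**Figure D5:**
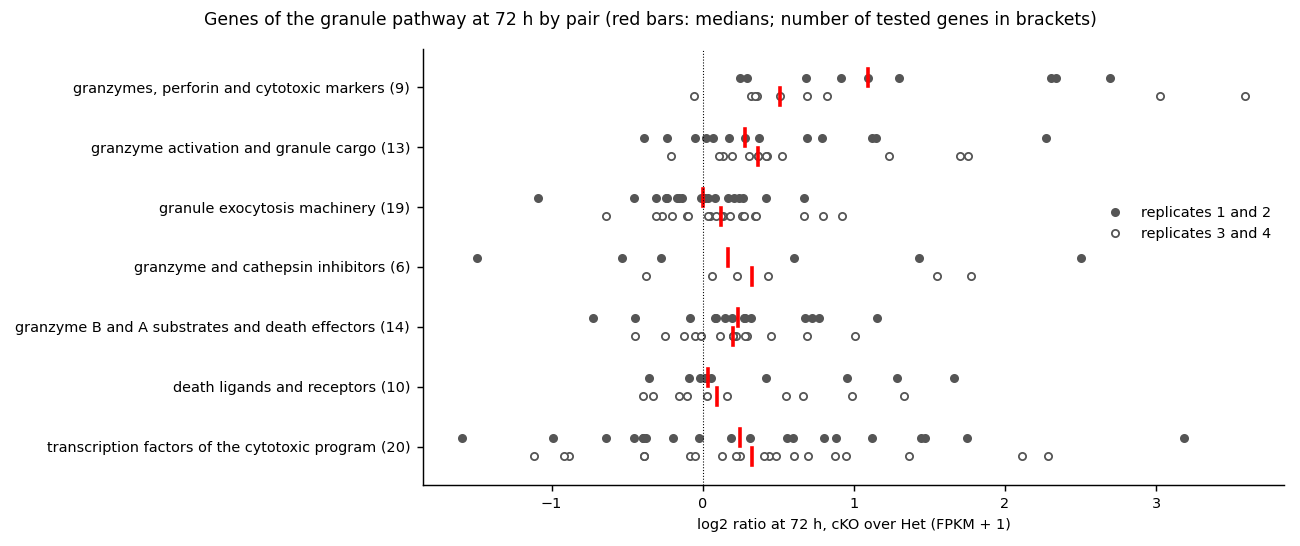
Log2 ratio of cKO to Het labels at 72 h, on the log2(FPKM + 1) scale, for each tested gene of 7 lists, with filled circles for replicates 1 and 2, open circles for replicates 3 and 4, and red bars for the median of each pair. The median of the 9 members was 1.09 and 0.51 in these pairs, and that of the exocytosis machinery 0.00 and 0.12.

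Transcription factors of the cytotoxic program were higher in 12 of 20 tested genes (median 0.26), against 61% of all genes. T-bet, the product of Tbx21, and Eomes are T-box factors that act on granzyme and perforin genes. Tbx21 was 2.04 and 2.23 FPKM in Het 1 and Het 3 at 72 h and 26.7 and 14.8 in cKO 2 and cKO 4, and Eomes 3.76 and 0.199 against 15.0 and 4.18. The groups did not overlap for either gene, as for 24.9% of all genes in that direction. Their log2 differences were 2.74 ± 0.27 and 1.93 ± 0.20 (SE), and Irf4, a factor of effector differentiation, stood at 1.40 ± 0.12, each with a limma adjusted p of 0.106. Id3, which restrains effector programs, stood at -1.36 ± 0.17 (limma adjusted p = 0.121). At 48 h Tbx21 was 3.04 and 2.82 in Het 1 and cKO 2, with no higher level in the library labelled cKO, and Eomes was 0.749 and 1.75, higher with that label. Over time, 0 of 20 factors passed limma's adjusted p of 0.05, and 15 were higher at 72 h (50.3% of all genes were).

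Genes with profiles most like the members' were ranked by the root mean square difference of log2 values over the 6 libraries, centred within each table, among 8851 genes whose mean reached 5 FPKM. The closest to Gzma was Nkg7 (0.39), followed by Ly6a (0.53), H2-DMb2 (0.57), Dnm1 (0.58) and Tbx21 (0.59). Nkg7 was closest to Rec8 (0.27), then to Cox6b2 and Gzma (0.39 each), Asb2 (0.48) and Dnm1 (0.49). Gzmb and Cd8a were each other's closest gene (0.27), with Tgm2 next (0.69 from Gzmb and 0.63 from Cd8a) and Gzmc after it (0.79 and 0.68). Further down were Tcrg-C2 (0.92) and Ly6a (0.93) for Gzmb, and Trgv2 and Rn7sk (0.75 each) for Cd8a. These likenesses describe 6 libraries, and centring removes differences in level between the tables. Replicates 3 and 4 at 72 h had 182 and 227 FPKM of Gzmb and 1.01 and 2.24 of Cd8a. They counted only through the difference within their pair. Ly6a was at 218 and 186 FPKM in Het 1 and Het 3 at 72 h and 529 and 740 in cKO 2 and cKO 4. At 48 h it was 67.2 (Het 1) and 42.4 (cKO 2), lower with the cKO label, whereas Gzma was higher.

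The marker lists that touch these comparisons had their own counts at 72 h. Of 9 tested CD8 T cell markers, Cd8a and Cd8b1 among them, 8 were higher in the libraries labelled cKO (61% of all genes were). The median log2 difference of these markers was 1.13 in replicates 1 and 2 and 0.37 in replicates 3 and 4. Xcl1, a chemokine of CD8 T and NK cells, was 9.37 FPKM in cKO 2 and 0 in both Het 3 and cKO 4. All 5 tested NK cell markers, Nkg7 among them, were higher in the fit of both pairs, against the same 61%. Their median log2 ratio was 2.27 in replicates 1 and 2 and 1.35 in replicates 3 and 4. In the latter pair Tyrobp was lower with the cKO label. Klrd1 was 4.84 and 14.4 in Het 1 and cKO 2 against 0 and 0.453 in Het 3 and cKO 4. Among the neutrophil and myeloid markers, Ltf was 21.4 FPKM in Het 3 and 75.3 in cKO 4, and the macrophage marker Cd68 was 2.90 and 10.2. The 9 tested markers of that list had a median log2 ratio of 0 in replicates 3 and 4. S100a8, S100a9, Camp, Lcn2, Lyz2 and Mpo were listed at 0 in both libraries. Under 1 FPKM in both, Itgam, Adgre1 and Ngp were lower in cKO 4, and Chil3, Csf1r and Elane higher. The part of these transcripts in the difference of Gzma and Nkg7 in that pair was not tested. Of 4 tested gamma delta T cell genes 3 were higher, against 61% of all genes. Tcrg-C2 was 16.4, 28.6, 6.30 and 11.1 in Het 1, cKO 2, Het 3 and cKO 4.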

How the data were processed

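RNA sequencing of 6 mouse Treg libraries was analysed from FPKM deposited by the authors in 2 tables, 1 for replicates 1 and 2 and 1 for replicates 3 and 4. Per the labels' protocols, libraries were made with SMART-Seq v4. The submitters' processing notes name Bowtie2 2.2.3, TopHat2 2.0.12, HTSeq 0.6.1 and mm9. What each tool did, which annotation was used and how strand was treated is not given in the sources used here. One passage of the labels gives both genotypes the same alleles, so each library's own genotype label was used.

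Tests ran on the log2(FPKM + 1) scale, where changes of low genes are understated, with limma 3.58.1 in R 4.3.3. The fits took genes whose mean reached 1 FPKM, the table as a term and a variance trend, with Benjamini-Hochberg adjustment over all genes. The genotype fit at 72 h left 1 residual degree of freedom and the fits of all 6 libraries 2 (1 with the interaction). The code was tested on simulated data with 200 changed genes.

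Fragments were estimated from FPKM and mean transcript lengths (86.0% to 86.8% of low values were within 0.02 of a whole number, against 3.23% to 3.77% with scrambled lengths). They served only for 95% intervals (exact Poisson, and exact binomial for folds), which cover counting error alone. No count test was run. Of 47347 shared rows, 47069 had Ensembl identifiers and 46488 of these a symbol. The named genes were the members in all libraries, up to 4 genes with the smallest p of each pathway list, defining markers, and 5 genes of closest profile to each of 4 members. Ctsc, Srgn, Rab27a, Unc13d, Gzme, Gzmf, Gzmg, Xcl1, Klrd1, Ltf, Cd68 and Tgm2 were named after their values were seen. So were Fcer1g, Tyrobp, Klra4, Klra8, Itgae, Batf3, Wdfy4, Camp, Lcn2, Lyz2, Itgam, Adgre1, Ngp, Chil3 and Csf1r. Members and lists were chosen with earlier results of these data known. Alternatives were pseudocounts of 0.1 and 5, no filter, a mean of at least 5 FPKM, TPM, quantile normalization, median centring, no table term, no variance trend, a replicate block, leaving out libraries and, chosen after seeing the data, each 72 h pair alone.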

Additional observations from a re-analysis of the deposited data

Results flagged for a closer look

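Gzmb differed in direction between the times. The log2 ratio of the library labelled cKO to that labelled Het was -0.10 at 48 h (23.7 FPKM in Het 1 and 22.1 in cKO 2). It was 1.09 in replicates 1 and 2 and 0.32 in replicates 3 and 4 at 72 h. The difference between times was tested as an interaction term, which was 0.81 ± 0.40 (SE, limma adjusted p = 0.856) and did not pass.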

How the results depend on the processing

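For genotype at 72 h and over both times, each of the 9 tested genes kept a positive difference under all alternatives that could be fitted, and no member passed. In replicates 3 and 4 alone, a ratio without a fit, Cd8b1 was lower with the cKO label (log2 ratio -0.057). Without a filter 8 genes passed at 72 h, none of them a member, and over both times 0 to 7 passed when a library was left out (7 without Het 3 or without cKO 4). The time result depended most on the processing. Of 2 members called, 0 remained with a pseudocount of 5, no filter, no table term or a replicate block, and 1 with quantile normalization, median centring or no variance trend. Leaving out a library gave 0 to 1. Genes called over time, 3 in all, went to 1 with a pseudocount of 5, to 0 with no filter, no table term or a replicate block, and to 0 to 4 without 1 library. The replicate numbers coincide with genotype, so the block could not be checked as a pairing.

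Reversed values were Cd4 over time without cKO 2 at 48 h (-0.068, the lowest of a range up to 0.199 when leaving out 1 library), the interaction of Prf1 with a pseudocount of 5 (0.022) and that of Cd8b1 with quantile normalization (-0.081) or median centring (-0.032). Using replicates 1 and 2 alone gave 5 members at least 2-fold higher at 72 h, against 2 in both pairs, a choice made after seeing the data. The unadjusted split at 72 h was 974 genes higher and 1145 lower with quantile normalization. The cause of these changes was not tested. Leaving out a library at 72 h, or in the interaction, left no residual degrees of freedom and could not be fitted. With 1 or 2 residual degrees of freedom, differences that miss the threshold are not shown to be absent. Gzmk, at 1 to 22 fragments, is limited by depth.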

Other observations

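Granule proteases of other blood cells were also measured. Mcpt8 and Prss34, proteases of basophils, were 2.60 and 3.03 FPKM in cKO 2 at 48 h and 2.16 and 2.14 in cKO 2 at 72 h, and both were listed at 0 in the other 4 libraries. The neutrophil granule genes Mpo and Elane were 3.86 and 0.772 FPKM in cKO 2 at 48 h, 2.39 and 0.683 in cKO 2 at 72 h, and at most 0.132 elsewhere.

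Besides Gzmb and Cd8a, the gene past limma's adjusted p of 0.05 over time was Tgm2, a transglutaminase that crosslinks proteins. Het 1 went from 8.12 FPKM at 48 h to 84.9 at 72 h and cKO 2 from 6.02 to 69.4, a log2 difference of 3.28 ± 0.13 (SE, limma adjusted p = 0.0124). In Het 3 and cKO 4 it was 20.7 and 15.0. In all 3 pairs Tgm2 was lower with the cKO label, whereas Cd8a was higher.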
